A study of Homo sapiens with 2 samples.

Results

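The genes described here encode subunits of the BAF (SWI/SNF) chromatin remodelling complexes and of the polycomb repressive complexes PRC1 and PRC2. They were listed by name, 26 BAF and 25 polycomb genes, which makes 51 of 38690 annotated genes, lncRNA genes included. A gene was counted as bound when a MYBL2 peak overlapped the 1000 bp either side of any of its transcription start sites (TSSs), and its best promoter peak was the one with the largest fold enrichment. All were matched in the annotation.

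BAF complexes use ATP to slide or evict nucleosomes and keep promoters and enhancers accessible. Polycomb complexes work in the opposite sense, with PRC2 methylating histone H3 (H3K27) and PRC1 ubiquitinating histone H2A at silenced genes. In Ewing sarcoma, a tumor of bone and soft tissue, the fusion protein EWSR1-FLI1 is known to draw BAF complexes to GGAA repeats, and the PRC2 enzyme EZH2 is a known target of the fusion. MYBL2 (B-Myb) is a transcription factor that joins the MuvB complex at promoters of late cell cycle genes, often through a DNA element called the cell cycle homology region (CHR).

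The data came from A673, an established Ewing sarcoma cell line that carries EWSR1-FLI1, without any treatment or gene alteration named in the labels. The samples were 1 MYBL2 chromatin immunoprecipitation (ChIP) library and 1 input library of the same line. The labels name MYBL2 as the antigen of the antibody, and the methods name the phosphorylated protein. Without a replicate, values have no replicate error and no difference was tested. Intervals are exact Poisson intervals at 95% for the ChIP fragment count, which cover counting error only.

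The deposited list held 66954 peaks on the hg19 genome with a median fold enrichment of 3.79 and a median pileup of 20 fragments at the summit. Fold enrichment is the ChIP pileup over the local background that the peak caller derived from the input, with 1 added to each. A peak at the promoter is no measure of transcription, and A673 expression was not analysed here.

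MYBL2 peaks lay at the promoters of 25 of the 26 BAF genes (96.2%, exact binomial interval 80.4 to 99.9%) and of 23 of the 25 polycomb genes (92%, 74 to 99%). For all members the count was 48 of 51, or 94.1% (83.8 to 98.8%). Of all genes of the annotation 41.9% were bound, and of protein-coding genes 59.4%. All 51 members had a CpG-rich promoter, with an observed to expected CpG ratio of at least 0.6, and among CpG-rich protein-coding genes 78.9% were bound. The members also had more annotated TSSs, with a median of 11 against 7 for CpG-rich protein-coding genes, and each TSS adds a window in which a peak can be counted. With only the canonical TSS of each gene, 48 of 51 members (94.1%) were bound, beside 76.8% of CpG-rich protein-coding genes. The part of CpG content and TSS number in the members' count was not tested. The 3 members without a promoter peak were ACTL6B, SUZ12 and CBX7.

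The groups differed little in how many genes were bound and more in how strongly. The median best promoter fold enrichment was 10.3 for bound BAF genes (interquartile range 8.11 to 13.03) and 8.31 for bound polycomb genes (6.75 to 12.1), a difference of 1.99. Bound CpG-rich protein-coding genes had a median of 8.99, and 16 of the 25 bound BAF genes but 8 of the 23 bound polycomb genes lay above it. A fold enrichment of at least 5 was reached by 24 BAF and 20 polycomb genes, beside 67.8% of CpG-rich protein-coding genes. A fold enrichment of at least 10 was reached by 14 BAF genes (53.8%) and 7 polycomb genes (28%), beside 23.1% of protein-coding genes and 32.7% of CpG-rich ones. The ranges of the groups overlapped almost fully, from 4.49 to 22.9 for BAF and from 3.49 to 23.2 for polycomb.

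Within the polycomb group, PRC1 genes had lower values than PRC2 genes. Among the 9 bound PRC2 genes the median was 12.4 and 5 reached a fold enrichment of 10, while among the 14 bound PRC1 genes the median was 7.78, the highest value 12.1, and 2 reached 10. These medians describe 1 peak list, and genes are not replicates.

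**Figure D1:**
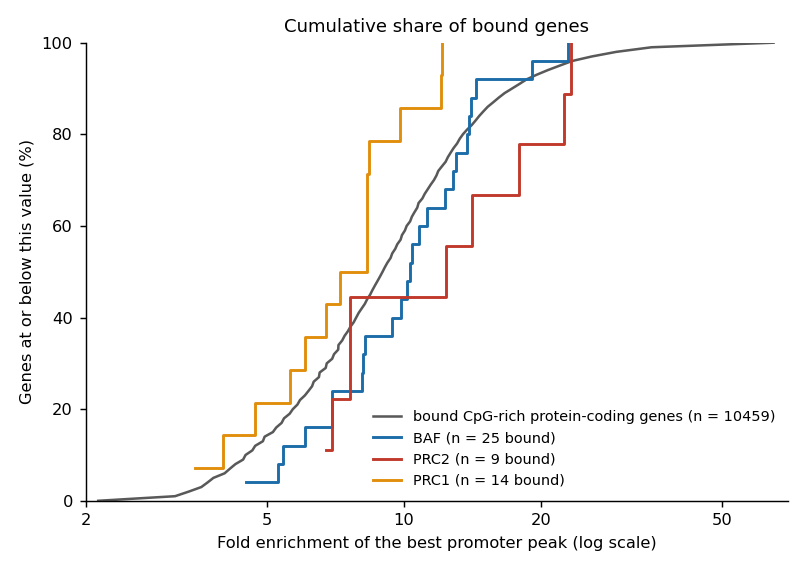
Cumulative share of bound genes (vertical axis, percent) at or below each fold enrichment of the best promoter peak (horizontal axis, log scale), for BAF, PRC2, PRC1 and all bound CpG-rich protein-coding genes. The PRC1 line reaches 100% at 12.1, whereas the BAF and PRC2 lines run on to 22.9 and 23.2.

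The strongest promoter peaks of the members lay at EZH2, PBRM1, EED, SMARCD2 and MTF2. The reference sequence around 6 summits is shown, the strongest ones that lie outside transcribed untranslated exons and those that hold a searched motif at SMARCA4, ARID1A and PHF19. Each run covers the 50 bp either side of the summit on hg19 and is written 5′ to 3′ on the strand of the gene. Capitals mark a motif match, and the PBRM1 run is shortened to 93 bases. The 8 bases left out, at its upstream end, lie in an annotated exon outside PBRM1.
EZH2, chr7:148581889-148581989, minus strand: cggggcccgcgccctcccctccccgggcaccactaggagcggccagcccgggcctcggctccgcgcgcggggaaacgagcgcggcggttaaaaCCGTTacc
PBRM1, chr3:52719939-52720031, minus strand: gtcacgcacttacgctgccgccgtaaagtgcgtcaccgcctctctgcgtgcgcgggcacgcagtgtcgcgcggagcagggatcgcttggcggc
MTF2, chr1:93544570-93544670, plus strand: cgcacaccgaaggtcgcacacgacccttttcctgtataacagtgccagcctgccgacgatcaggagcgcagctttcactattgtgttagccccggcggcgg
SMARCA4, chr19:11071179-11071279, plus strand: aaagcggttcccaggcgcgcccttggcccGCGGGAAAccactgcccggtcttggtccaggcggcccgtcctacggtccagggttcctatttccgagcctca
ARID1A, chr1:27022137-27022237, plus strand: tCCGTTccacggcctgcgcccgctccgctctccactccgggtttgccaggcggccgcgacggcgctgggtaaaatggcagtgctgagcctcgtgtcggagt
PHF19, chr9:123638742-123638842, minus strand: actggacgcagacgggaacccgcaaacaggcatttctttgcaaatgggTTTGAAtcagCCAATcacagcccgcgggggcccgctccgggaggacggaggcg

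The BAF ATPases SMARCA4 (BRG1) and SMARCA2 (BRM) are alternative motors of the complex. The best SMARCA4 peak, at chr19:11070744-11072779, held 45 ChIP fragments (32.8 to 60.2) over a background of 4.66, a fold enrichment of 8.12 (5.97 to 10.8). Its summit lay 477 bp upstream of the canonical TSS, in the sequence shown. The best SMARCA2 peak, at chr9:2157525-2160716, reached 10.4 (7.87 to 13.5) with 54 fragments, but it lay at an internal TSS, 143154 bp downstream of the canonical TSS. The peak at the canonical SMARCA2 promoter had a fold enrichment of 7.19. The counting intervals of the ATPase genes overlapped.

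Of the core subunits, all 7 were bound. SMARCB1 (SNF5), the subunit whose loss defines rhabdoid tumors, carried a peak at chr22:24128909-24130048 with 77 fragments (60.8 to 96.2) and a fold enrichment of 13.8 (10.9 to 17.2). SMARCE1, an HMG-box subunit, reached 14.4 (11.1 to 18.3) with 63 fragments at chr17:38803495-38804859, with its summit exactly at an annotated TSS. The scaffold paralogues SMARCC1 and SMARCC2 had 9.44 and 5.30, and their intervals overlapped. The SMARCD genes encode alternative copies of a subunit that links the core to transcription factors. SMARCD2, known for its part in granulocyte development, stood above its paralogues with 90 fragments and a fold enrichment of 19.1 (15.4 to 23.4) at chr17:61919591-61920764. SMARCD1 had 8.21 (5.95 to 11.1) and SMARCD3, a form of heart and neural cells, 6.07 (4.04 to 8.78), and neither counting interval overlapped that of SMARCD2.

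The subunits that define the 3 forms of the complex were all bound, 10 of 10. For canonical BAF these are the DNA-binding proteins ARID1A and ARID1B and the histone-reading DPF proteins. ARID1B had 61 fragments and a fold enrichment of 13.9 (10.7 to 17.8) at chr6:157097864-157098841, and a further peak of 13.5 at chr6:157341500-157343658, 244041 bp downstream of the canonical TSS. ARID1A had 64 fragments over a raised background of 5.60 and a fold enrichment of 9.85 (7.62 to 12.5), overlapping the interval of ARID1B. Of the DPF genes, DPF2, the form found in most tissues, had 10.1, the neural DPF1 6.96, and the muscle and neural DPF3 5.42. The 3 intervals of the DPF genes overlapped.

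For the PBAF form, PBRM1 (BAF180), a protein with a row of bromodomains, had the strongest peak of the BAF group, with 101 fragments (82.3 to 123) at chr3:52719300-52720656 and a fold enrichment of 22.9 (18.7 to 27.8). This peak was shared with the promoter of GNL3, a nucleolar GTPase gene that starts nearby on the other strand. The DNA-binding PBAF subunit ARID2 had 10.3, with its summit 2202 bp upstream of the nearest TSS, and 6.62 when the summit itself had to lie in the window. The bromodomain subunit BRD7 had 12.4, and the PHD finger subunit PHF10 8.11. BRD9, the bromodomain subunit of the non-canonical form, had 12.8 at a peak shared with TRIP13, a gene of meiotic and mitotic checkpoint control. Among the members' best promoter peaks, only those of PBRM1, BRD9 and SS18L1 were shared with the promoter of another protein-coding gene. Such a peak cannot be assigned to either gene. A further 9 BAF and 6 polycomb best peaks also lay at the promoter of a lncRNA gene. The share of such peaks over all bound genes is not given here, so these counts show no trait of the members.

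In the module that binds the ATPase, ACTL6A (BAF53A), the actin-related subunit of dividing cells, had 69 fragments and a fold enrichment of 14.1 (10.99 to 17.7) at chr3:179280089-179281677. Its neuronal paralogue ACTL6B (BAF53B) had no promoter peak, and the nearest peak lay 17451 bp from its canonical TSS on the upstream side. SS18, the partner of SSX genes in the fusion of synovial sarcoma, and its neural paralogue SS18L1 (CREST) had close values of 10.8 and 11.2, the latter at a peak shared with the proteasome gene PSMA7. The BCL7 genes encode small accessory subunits. BCL7B stood above its paralogues with 13.03 (9.92 to 16.8), BCL7C had 6.96 (4.77 to 9.85) and BCL7A 4.49 (2.79 to 6.89), and the BCL7B interval overlapped neither. BCL7A was the weakest bound BAF gene, with 19 fragments.

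**Figure D2:**
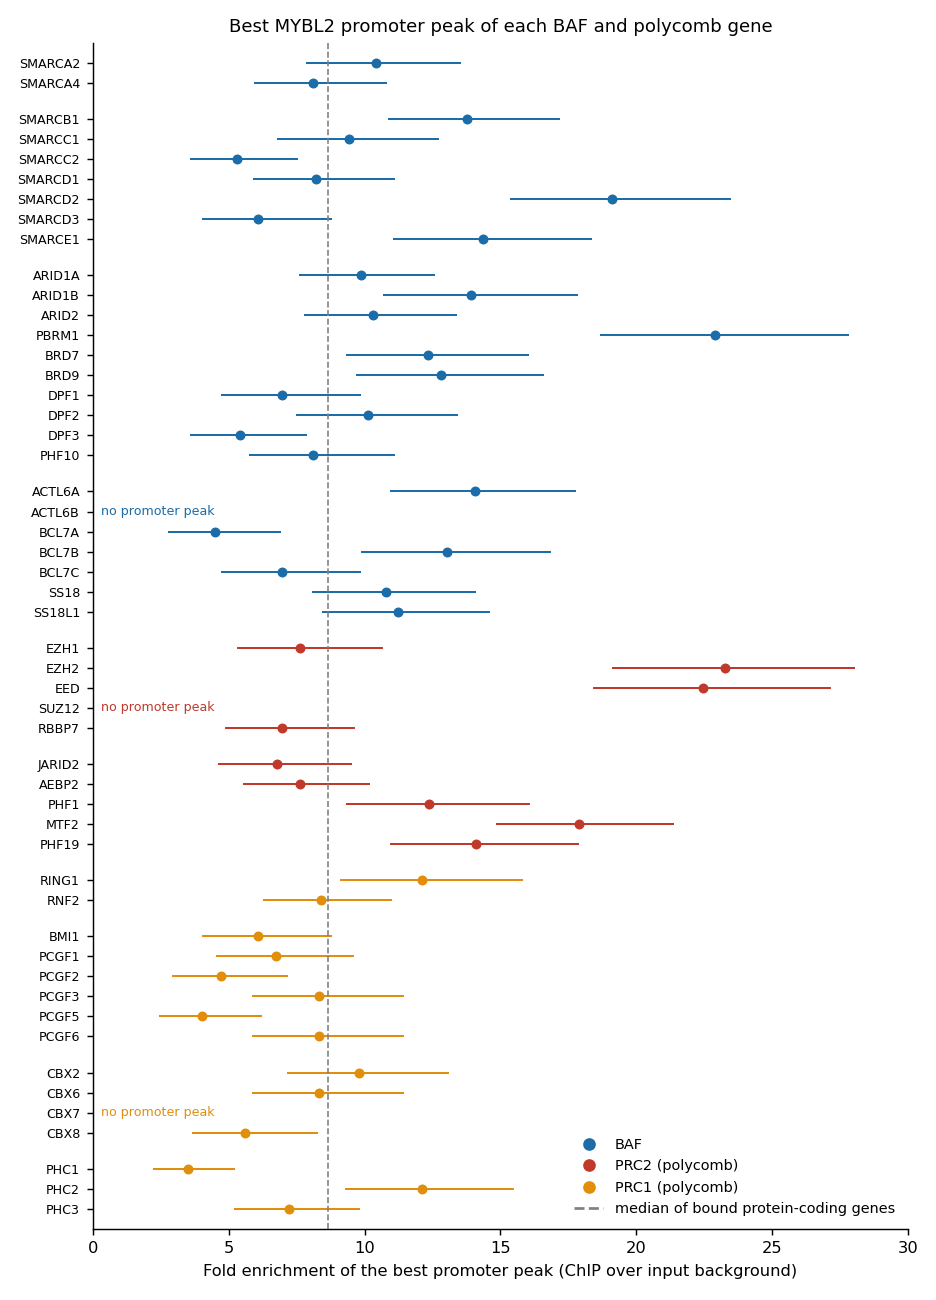
Fold enrichment of the best promoter peak (horizontal axis, ChIP over input background) for each BAF, PRC2 and PRC1 gene, with lines for the 95% counting interval and a dashed line at the median of bound protein-coding genes, 8.67. EZH2, PBRM1 and EED lie farthest right, the PCGF genes all lie left of the dashed line, and ACTL6B, SUZ12 and CBX7 have no promoter peak.

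The PRC2 core is formed by a methyltransferase (EZH2, or EZH1 in resting cells), EED, which reads the methyl mark, SUZ12, and a histone-binding WD40 protein such as RBBP7. The strongest promoter peak of all members lay at EZH2, at chr7:148580333-148582623, with 109 fragments and a fold enrichment of 23.2 (19.1 to 28.0). Its summit lay 556 bp upstream of the canonical TSS, and it ranked 389 among the 66954 peaks of the list. EED was close to it, with 106 fragments and 22.5 (18.4 to 27.1) at chr11:85955080-85956824, ranked 441. EZH1 had 33 fragments and 7.64 (5.33 to 10.6), so EZH2 exceeded its paralogue 3.04-fold without overlap of the counting intervals. RBBP7 had 6.98 (4.92 to 9.63). The core genes thus ranged from among the strongest promoters of the list to SUZ12, where no promoter peak was called.

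The 5 PRC2 accessory genes were all bound. The 3 polycomb-like proteins PHF1, MTF2 and PHF19 bring PRC2 to CpG-rich DNA, and each reached a fold enrichment of 10. MTF2 (PCL2) had the most fragments of any member, 121, and a fold enrichment of 17.9 (14.9 to 21.4) at chr1:93543955-93545579, over a background of 5.81 that was the highest at any member's best peak. PHF19 (PCL3) had 67 fragments and 14.1 (10.97 to 17.8) at chr9:123638016-123639451. PHF1 (PCL1) had 54 fragments and 12.4 (9.34 to 16.1) at chr6:33377663-33378330. The subunits of the alternative PRC2 form were lower, AEBP2 with 7.61 (5.58 to 10.16) and JARID2 with 6.76 (4.66 to 9.51), and the intervals of MTF2 and of both these genes did not overlap.

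Of the PRC1 ligases that ubiquitinate H2A, RING1 (RING1A) had 53 fragments and 12.1 (9.14 to 15.8) at chr6:33175646-33176455, and RNF2 (RING1B) had 51 fragments and 8.39 (6.28 to 10.97), with overlapping intervals. The PCGF genes, each of which defines a PRC1 variant, had the lowest median of the subgroups, 6.403, and none of the 6 reached a fold enrichment of 10. Their values were 8.31 at PCGF6, 8.31 at PCGF3, 6.74 at PCGF1, 6.07 at BMI1 (PCGF4), 4.72 at PCGF2 (MEL18) and 4.002 at PCGF5. The PCGF3 peak lay 60177 bp downstream of the canonical TSS, where the promoter peak had 6.51. PCGF5, with 18 fragments, had the fewest of any bound member, and the PCGF6 and PCGF5 intervals still overlapped.

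The CBX proteins of canonical PRC1 read the methyl mark left by PRC2. CBX2 had 9.79 (7.18 to 13.1), CBX6 had 8.31 (5.89 to 11.4) and CBX8 had 5.62 (3.68 to 8.25), while CBX7 had no promoter peak. Of the PHC genes, whose proteins polymerise and compact polycomb chromatin, PHC2 had 12.1 (9.32 to 15.5) with 62 fragments at chr1:33815607-33816699, PHC3 had 7.24 (5.22 to 9.79) and PHC1 had 3.49 (2.24 to 5.20), the lowest fold enrichment of all bound members. The PHC2 and PHC1 intervals did not overlap. The PHC2 value, however, belonged to an internal TSS 80956 bp downstream, and the canonical PHC2 promoter had 3.76.

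**Figure D3:**
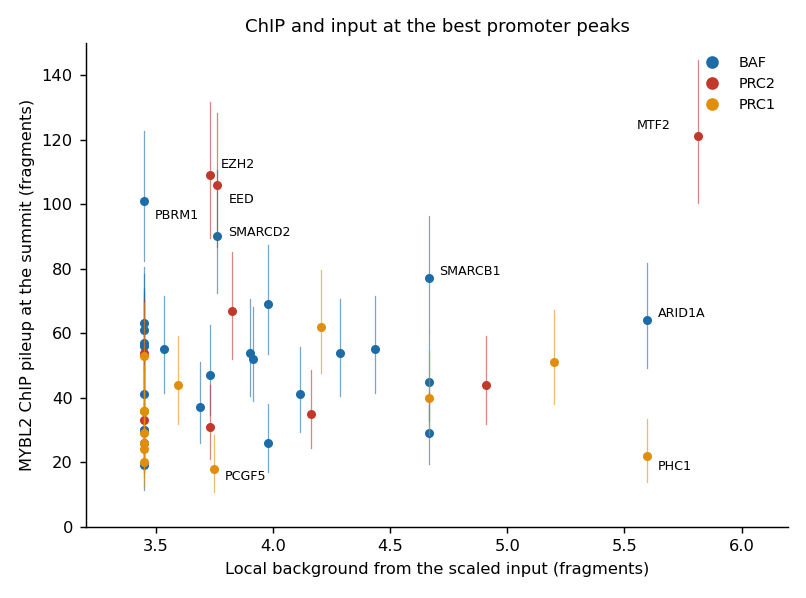
MYBL2 ChIP pileup at the summit (vertical axis, fragments, with 95% Poisson intervals) against the local background from the scaled input (horizontal axis, fragments) for the best promoter peak of each bound gene. EZH2, EED, PBRM1 and SMARCD2 combine 90 to 109 fragments with a background under 4, whereas MTF2 has 121 fragments over 5.81 and PHC1 22 fragments over 5.60.

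Input differed less than ChIP across these promoters, with backgrounds of 3.451 to 5.81 fragments against pileups of 18 to 121. The lowest of these backgrounds is a floor that the caller sets from the genome-wide depth. It was held by 10 of the 25 BAF peaks (40%) and 10 of the 23 polycomb peaks (43.5%), 8 of them at PRC1 genes. The share was 36.9% over bound protein-coding genes and 38% over bound CpG-rich ones. At peaks on this floor the fold enrichment follows the ChIP pileup alone. The median pileup was 54 fragments for BAF (19 to 101) and 36 for polycomb (18 to 121), the same order of the groups as by fold enrichment. Pileup is the numerator of the fold enrichment by which the best peaks were chosen, so this order is no separate evidence.

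The summits of the members lay about as far from a start site as those of other bound genes. Within 100 bp of the nearest TSS of the gene lay 14 of the 25 BAF summits (56%) and 13 of the 23 polycomb summits (56.5%), beside 58.6% for all bound protein-coding genes and 60.7% for CpG-rich ones. Set against the canonical transcript, 14 BAF and 11 polycomb summits lay outside it, 5 and 6 in an untranslated exon, 3 and 6 in an intron, and 3 and 0 in a coding exon. The median width of the best peak was 1085 bp for BAF and 837 bp for polycomb, beside 865 bp for bound protein-coding genes and 901 bp for CpG-rich ones. The best peak was also the strongest one at the canonical promoter for 45 of the 48 bound members, the exceptions being SMARCA2, PCGF3 and PHC2. Shares over all bound genes are not given for this count or for the places in the transcript, so these show no trait of the members.

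Counting every promoter peak, the bound BAF genes held 80 and the bound polycomb genes 75. Of these, 33 and 31 had a fold enrichment of at least 5. ARID1A held 14 and EZH2 13, the most of the members, while 13 members held 1. ARID1A has 16 annotated TSSs and EZH2 19, whereas SMARCA2, with 66, held 4 promoter peaks.

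**Figure D4:**
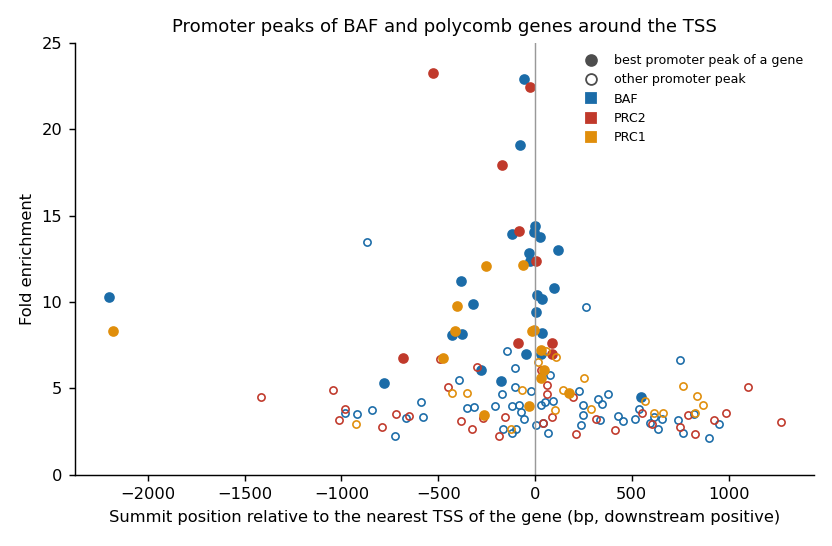
Fold enrichment (vertical axis) of each promoter peak of the BAF, PRC2 and PRC1 genes against the position of its summit relative to the nearest TSS of the gene (horizontal axis, bp, downstream positive). Filled points are the best peak of a gene and open points its other promoter peaks, and the highest filled points lie close to 0, apart from EZH2 at -526 bp.

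Several members were covered by weak peaks along the whole gene. Peaks with their summit inside a gene and at none of its own promoters are called body peaks here. They were found in 17 of the 26 BAF genes (65.4%) and 17 of the 25 polycomb genes (68%), beside 36.9% of protein-coding genes, and numbered 161 and 195. That background holds all protein-coding genes, bound or not, whereas every member was CpG-rich and most were bound. A body peak share over CpG-rich genes alone, or over related chromatin genes, is not given. Pooled over genes, the density of body peaks was 7.12 per 100 kb for BAF, 12.1 for polycomb and 2.77 for all protein-coding genes. The median density per gene was 4.69, 7.25 and 0. The median length of the genes was 42.6 kb for BAF and 44.8 kb for polycomb, against 27.3 kb for protein-coding genes. Most body peaks were weak, with a median fold enrichment of 3.37 in BAF and 3.531 in polycomb genes, and 5 and 17 of them reached a fold enrichment of 5. At that threshold BAF genes no longer stood above the background, with a body peak in 11.5% of genes beside 12.1% of protein-coding genes and 0.221 per 100 kb beside 0.299. The polycomb values were 28% of genes and 1.06 per 100 kb.

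Of all members, ARID1A and EZH2 held the most body peaks. ARID1A held 55 body peaks in 88.9 kb, or 61.9 per 100 kb, and 99.71% of protein-coding genes held fewer. Their median fold enrichment was 3.48 and the highest 6.59. EZH2 held 42 body peaks in 77.1 kb, or 54.5 per 100 kb, with a median of 3.63 and none above 4.77, and 99.53% of protein-coding genes held fewer. By density the short genes CBX2 and CBX6 led, with 10 body peaks each and 102 and 92.4 per 100 kb. At the other end, 17 members held none, among them EED, PBRM1, SMARCE1, SS18, PHF1 and RING1, although each of these had a best promoter peak above 10. Dense body peaks were not particular to BAF and polycomb genes. Among other chromatin remodeller genes, BAZ1B held 45 body peaks, or 54.95 per 100 kb, and CHD2 held 34, while RUVBL2 held none.

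JARID2, which bridges PRC2 to DNA and nucleosomes, held the strongest peaks away from any promoter. Of its 41 body peaks, 5 in introns at no annotated promoter exceeded the peak at its own promoter, 6.76. Of these, 6.82 at 22744 bp and 6.85 at 258904 bp downstream of the canonical TSS were close to that value, and the other 3 were far above it. The peak at chr6:15365546-15366230, 119516 bp downstream of the canonical TSS, had 74 fragments and a fold enrichment of 15.9. The peak at chr6:15434439-15435190, 188541 bp downstream, had 89 fragments and 17.9. The peak at chr6:15439491-15440180, 193564 bp downstream, had 124 fragments and 14.98. The best promoter peaks of all members held 18 to 121 fragments, so the last of these counts lay above all of them. The peak of 124 fragments nevertheless had a smaller fold enrichment than those of 74 and 89 fragments, so its local background was higher. The single other body peak with a fold enrichment of at least 10, 20.9 in BCL7C, lay at the promoter of the lncRNA gene MIR762HG.

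**Figure D5:**
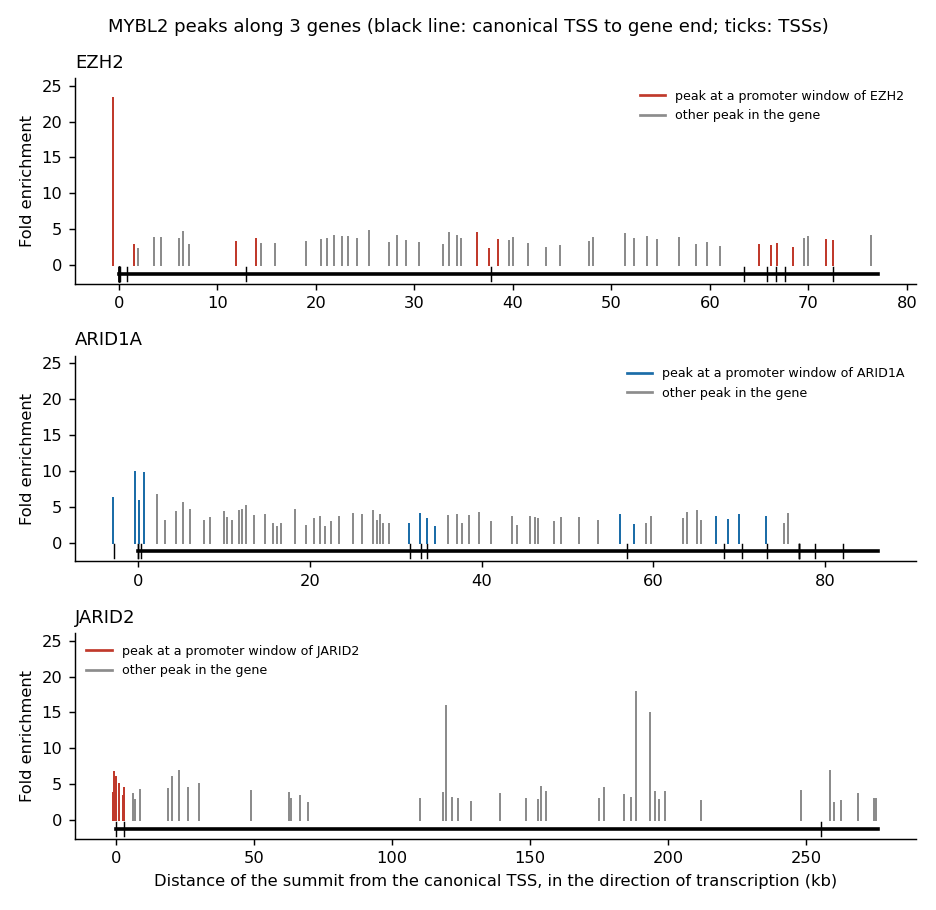
Fold enrichment of MYBL2 peaks (vertical axis) along EZH2, ARID1A and JARID2 by distance of the summit from the canonical TSS (horizontal axis, kb), with coloured lines for promoter peaks, grey lines for other peaks, and ticks for annotated TSSs. EZH2 shows 1 tall promoter peak of 23.2 and ARID1A a pair of promoter peaks of 9.85 and 9.72, each followed by a row of peaks mostly under 5, whereas JARID2 shows 3 intronic peaks of 15.9, 17.9 and 14.98 above its promoter peak of 6.76.

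No promoter peak was called at ACTL6B, CBX7 and SUZ12, which is a statement about peaks that passed the caller at this depth and not about absence of binding. The best promoter peaks of the bound members held 18 fragments or more. The nearest peak to CBX7 lay 7194 bp downstream of its canonical TSS, inside the gene, with 19 fragments and a fold enrichment of 4.49. The nearest peak to SUZ12 lay 35344 bp upstream, with 20 fragments and 4.72.

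The SUZ12 promoter differed from those of ACTL6B and CBX7 in how unique its sequence is. Of the 1902 stretches of 100 bases in the 1000 bp either side of its canonical TSS, 462 (24.3%) occurred more than once in the genome, whereas ACTL6B and CBX7 had 0. A copy of 1706 bp with 95.52% identity lay at chr17:29057947-29059628, which held 0 peaks, and no other member had a copy of at least 500 bp with 95% identity. PHC1, the weakest bound member by fold enrichment, was next with 11.7% of stretches, and 45 of the 51 members had none. Reads that fit more than 1 place can be lost or misplaced in alignment, and their part in the values of SUZ12 and PHC1 was not tested.

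The sequence at the best summits was searched on both strands within 50 bp for short motifs, and shares are given beside those over the 10178 best peaks of all bound protein-coding genes. The MYB motif AACGG was found at 2 of 25 BAF summits, ARID1A and BRD9, and at 3 of 23 polycomb summits, EZH2, PCGF2 and PHC2, beside 11.1% of all. The CHR letters TTTGAA or TTCGAA were found at 1 member, PHF19, beside 3.88% of all. An E2F motif (TTTGGCGC, TTTCCCGC, TTTGCCGC or TTTCGCGC) was found at SMARCA4 alone, beside 1.75%, and CCAAT at DPF1, ACTL6A, EZH1 and PHF19, beside 9.72%. The YY1 motif AAGATGGCG was found at SMARCD1, DPF2 and PHC3, beside 1.86%. The ETS letters CCGGAAGT (3.48% of all) and the NRF1 motif (0.531%) were found at none of the members. With 100 bp either side, the CHR letters were also found at SMARCC2, BRD9 and EZH2, an E2F motif also at BRD7, and the NRF1 motif at PHC3. The matches at PHF19 did not overlap each other, and a match is a description of the letters and not of a bound site.

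PHF19 was the member with a CHR at its summit. In the sequence shown, TTTGAA covers the summit itself and CCAAT follows after 4 bases, on the same strand as the gene. In EZH2 and ARID1A the capitals CCGTT are the reverse complement of AACGG, 45 and 47 bp from the summit and thus close to the edge of the searched stretch. In SMARCA4, GCGGGAAA is the reverse complement of TTTCCCGC, 17 bp from the summit. The YY1 letters lay just inside the transcribed start, and only the stretch of 29 bases around them is shown, on the strand of the motif.
SMARCD1, chr12:50479140-50479168: cggctccgggAAGATGGCGgcccgggcgg
DPF2, chr11:65101345-65101373: aggaacagggAAGATGGCGgctgtggtgg
PHC3, chr3:169899488-169899516: tggaggagagAAGATGGCGgaagcggagt

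Most genes of the lists of related factors also had a promoter peak. Of 27 other polycomb and BAF partner genes, all 27 had a promoter peak (100%, 87.2 to 100%), with a median best fold enrichment of 9.004. The highest were ASXL1, a subunit of the H2A deubiquitinase that opposes PRC1, with 222 fragments and 39.7 (34.7 to 45.2), and ACTB, the actin that sits in BAF complexes, with 126 fragments and 28.5. Of 28 remodeller genes of the ISWI, CHD and INO80 families, 26 were bound (92.9%), with a median of 10.01. The highest were SRCAP at 28.7 and INO80 at 21.3, and CECR2 and CHD5 had no promoter peak. The peaks of ASXL1, ACTB, SRCAP and the partner gene MBD6 had a larger fold enrichment than that of EZH2. The MBD6 peak, at 24.2, was shared with the promoter of DDIT3.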

How the data were processed

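MYBL2 ChIP and input of A673 cells were compared through 1 deposited peak list (1 ChIP and 1 input library, no replicate). The authors state in their methods that single-end reads went through Bowtie2 to hg19 and that MACS2, in its narrow mode, called peaks over the input. The submitters' processing notes name versions 2.1.10 and 2.0.10. What a further cleaning step removed is not given in the sources used here. The deposited fold enrichment is a linear ratio of summit pileup to local background. The caller also gave the deposited −log10 values of p and q, with a weakest q of 0.0493, and the deposited score is a whole-number form of −log10 q and was not used.

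A whole-number pileup was solved from the ratio and −log10 p in 66954 of 66954 peaks (largest misfit 3.49e-05). The background floor of 3.451 fragments, with the preset genome size of 2700000000 bp and a fragment length of 164 bp (the narrowest peak), corresponds to about 56800000 ChIP reads. The 20098 protein-coding and 18592 lncRNA genes of GENCODE release 44 lifted to GRCh37 gave 193738 TSSs. CpG ratios covered 500 bp either side of the canonical TSS. Sequences were read from GRCh37, which has the hg19 coordinates (0 peaks lay beyond a chromosome end). Copies were sought with minimap2 2.31. Calculations used Python 3.11.15, numpy 2.4.6, scipy 1.17.1 and pysam 0.24.0 and were tested on simulated data.

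The members and gene lists were chosen with earlier results of these data known. Every member is named, with coordinates for the 5 largest best peaks in each group and for EZH2, SMARCA4 and SMARCB1, and coordinates of other peaks (internal, intronic or next in order) were chosen after their values were seen. Alternatives were stricter peak thresholds, other promoter windows, the summit in the window, other TSS sets and, added after the data were seen, the canonical TSS only. No test was run, since each group has 1 library.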

Additional observations from a re-analysis of the deposited data

How the results depend on the processing

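The count of bound genes was 25 BAF and 23 polycomb with a −log10 q of at least 5, with 500 bp windows, with windows of 5000 bp upstream to 1000 bp downstream, with the summit in the window, with TSSs of protein-coding transcripts and with the canonical TSS. It was 24 and 20 with a fold enrichment of at least 5, which leaves out BCL7A, PCGF2, PCGF5 and PHC1, and 22 and 19 with only the outermost TSS, which loses SMARCA2, SMARCD3, BCL7A, EED, AEBP2, PHF19 and PCGF5. Over these alternatives the BAF median ran from 10.15 to 10.54, the polycomb median from 7.24 to 8.31, and the difference from 1.99 to 3.30. Bound CpG-rich protein-coding genes had medians from 8.898 to 9.853, the highest with a fold enrichment of at least 5. At that threshold the BAF median was 10.36 and the polycomb median 8.312. Of CpG-rich protein-coding genes 67.8% were bound at that threshold, 71.9% with only the outermost TSS and 76.8% with the canonical TSS. Body peaks fell to 55 in BAF and 81 in polycomb genes with a −log10 q of at least 5, and to 5 and 17 with a fold enrichment of at least 5, since fewer peaks pass, and the share of BAF genes with a body peak then fell to 11.5%, beside 12.1% of protein-coding genes. Of the single members' values 7 of 373 moved beyond their counting interval, at PCGF2, ARID2, ARID1A, DPF1, PHC2 and SMARCA2. With 100 bp either side of the summit, 7 of 14 motif counts moved: MYB in polycomb genes from 3 to 6 (all peaks 20%), CHR from 0 to 2 in BAF and 1 to 2 in polycomb genes (7.38%), E2F in BAF from 1 to 2 (3.44%), CCAAT from 2 to 4 in both (19.7%) and NRF1 in polycomb genes from 0 to 1 (1.32%). No paired analysis was possible because ChIP and input are 1 library each. The depth of 1 library limits what can be said of members without a peak.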
